A study of Mus musculus with 7 samples.

Results

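Spleen monocytes given the oligonucleotide CpG B are set here against unstimulated spleen monocytes of the same study, on 3 of its 7 mouse expression arrays. The CpG B cells came from mouse 1 and had 2.5 µM of the oligonucleotide for 3 h, on 1 array. The unstimulated cells came from mouse 1 and mouse 2, with 1 array each, and how long they stayed in culture is not stated in the labels. The arrays were picked by their titles. Of the other 4 arrays, mouse 1 gave cells with R848 at 2 µg/ml and cells with poly I:C at 1 µg/ml, and both mice gave cells with HL7G, a monoclonal antiphospholipid antibody, at 400 ng/ml, each for 3 h. All 7 samples were wild type for EPCR, the endothelial protein C receptor. The labels state neither strain, age, the way monocytes were selected nor the letters of the oligonucleotide, and an IgG condition named in the protocol was not analysed here.

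B-class CpG oligonucleotides carry unmethylated CpG dinucleotides, which TLR9 binds in endosomes after Unc93b1 has brought the receptor there and proteases have trimmed it. TLR9 signals through Myd88 to NF-kB, to the MAP kinases and to interferon regulatory factors. The B class is known for activating NF-kB, B cells and antigen-presenting cells, and for inducing less type I interferon in plasmacytoid dendritic cells than the A class does. R848 acts on TLR7, and poly I:C, a double-stranded RNA, on TLR3 and cytosolic RNA sensors.

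With 1 CpG B array there is no spread between replicates of the stimulated cells, so each difference is given from either unstimulated array. All levels are log2 expression levels per gene, and all differences are CpG B minus the named array on the log2 scale. Both the CpG B array and the mouse 1 unstimulated array come from the same animal, and the mouse 2 array does not. The 2 unstimulated arrays stood apart: 212 of 11119 tested genes differed at least 2-fold between them. Housekeeping and ribosomal protein transcripts read low on average on the mouse 1 unstimulated array. Thus 10 housekeeping transcripts had a median difference of 2.44 from mouse 1 and 0.71 from mouse 2, and 18 cytosolic ribosomal proteins had medians of 1.84 and 1.06. This did not hold for every abundant transcript. Mitochondrially encoded genes averaged 11.03 in mouse 1 and 11.02 in mouse 2 unstimulated cells, and Gapdh read 9.13 and 8.75. The median over all tested genes was 0.03 from mouse 1 and 0.06 from mouse 2.

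The monocyte label was set beside 17 marker genes, of which 9 were bright enough to be tested. The 8 untested ones read 3.38 to 4.99 over all arrays. Of 12 B cell markers 11 were bright enough, and of 11 T cell markers 9. By number and level, these markers did not set monocytes above lymphocytes. None of the 9 monocyte markers was 2-fold from both unstimulated arrays. Their mean level was 5.39 in CpG B cells, against 5.30 and 5.40 in unstimulated cells. The inflammatory monocyte markers Ly6c2 and Ccr2 read 3.96 each in CpG B cells, against 3.74 and 4.10 for Ly6c2 and 4.09 and 4.07 for Ccr2 in unstimulated cells of mouse 1 and mouse 2, under the level needed for testing. The lysozyme gene Lyz2 read 5.60 in CpG B cells, against 4.53 and 5.11 in unstimulated cells. B cell and T cell markers were also measured on every array: the mean level of 11 B cell markers was 5.36 with CpG B, against 4.81 and 5.03 unstimulated, and that of 9 T cell markers 5.66, against 4.97 and 5.16. In RNA of a cell population, fewer cells of a type and less RNA per cell cannot be told apart.

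CpG B cells differed from unstimulated cells mainly in 1 direction. At least 2-fold above both unstimulated arrays were 606 genes (5.45% of those tested), and 33 (0.297%) were at least 2-fold below both. Of these, 73 (0.657%) lay at least 4-fold above and 2 (0.018%) at least 4-fold below. Among the genes named here, ranked by the smaller of the 2 differences, Ifi209, Nfkbiz and the nucleolar Gnl3 lay furthest above both unstimulated arrays. Ifi209 is an interferon-inducible p200 gene, and Nfkbiz encodes an atypical inhibitor of NF-kB. No inflammatory cytokine was 2-fold above both. Against the mouse 1 unstimulated array alone 1138 genes (10.2%) lay 2-fold above and 114 (1.03%) below, and against that of mouse 2 alone 692 (6.22%) above and 77 (0.693%) below. The threshold ran between Naa50, 1.00 above the nearer unstimulated array, and Spout1, 0.999 above it.

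In limma's moderated test with Benjamini-Hochberg adjustment over all 11119 genes, 0 genes were called higher and 0 lower in CpG B cells at an adjusted p under 0.05. The smallest adjusted p was 0.135, shared by 3 genes, and 1370 genes (12.3%) had an unadjusted p under 0.05, where 556 would by chance. That fit took its spread from the 2 HL7G arrays and the 2 unstimulated arrays. Without the HL7G arrays, with 1 residual degree of freedom, 502 genes (4.51%) were called higher and 28 (0.252%) lower; without the mouse 2 unstimulated array 86 were called higher. Of the genes 2-fold from both unstimulated arrays 94.8% lay above, and this share was 77.5% after cyclic loess scaling (385 above, 112 below) and 78.8% after quantile scaling (469 above, 126 below).

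**Figure D1:**
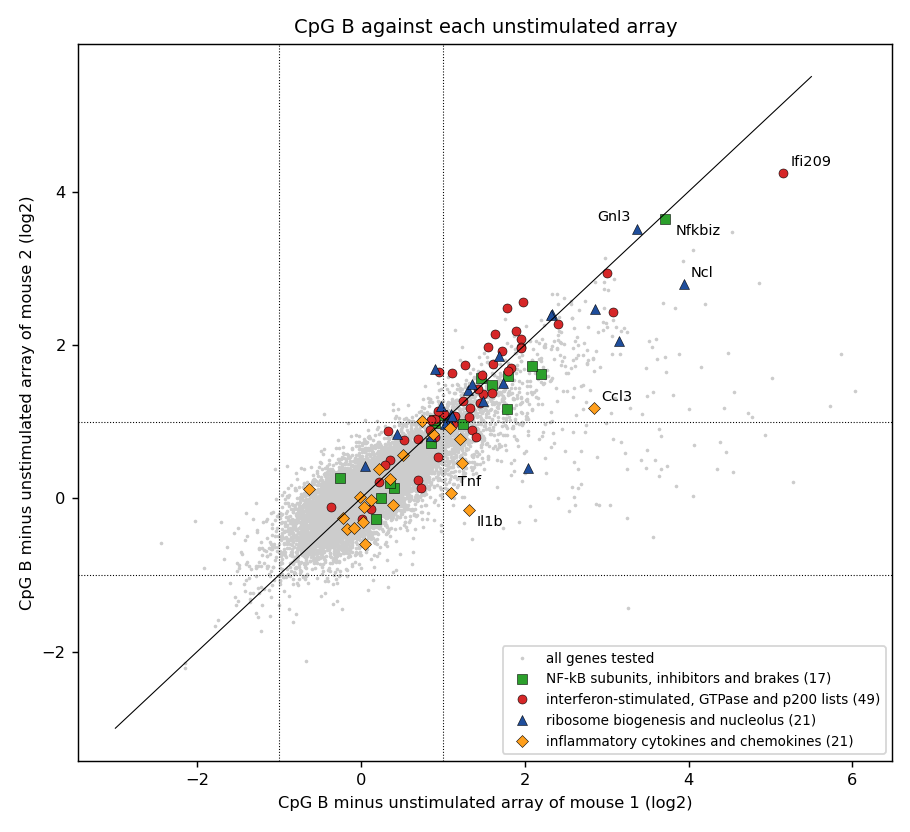
Each point is 1 tested gene, placed by its log2 difference between the CpG B array and the unstimulated array of mouse 1 (x axis) and of mouse 2 (y axis); coloured points are the listed gene groups with their number of genes, dotted lines mark 2-fold and the solid line marks equality. Interferon, NF-kB and nucleolar genes reach beyond 2-fold on both axes, with Ifi209 at 5.16 and 4.24, while Tnf (1.09 and 0.07) and Il1b (1.32 and -0.16) lie apart from mouse 1 only.

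The 15 genes furthest above both unstimulated arrays are named next, as values, since none was called. Their mean differences lay between 2.55 and 4.70 and their adjusted p-values from limma between 0.135 and 0.297. The p200 gene Ifi209 led them, at 8.71 in CpG B cells, against 3.55 in unstimulated cells of mouse 1 and 4.47 in those of mouse 2, or 35.7-fold and 18.9-fold. Nfkbiz, which encodes the nuclear NF-kB cofactor IkB-zeta, read 8.17 in CpG B cells, against 4.46 and 4.53. For both genes the unstimulated arrays lay far below CpG B and close together relative to the gap.

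Gnl3 (nucleostemin, a nucleolar GTPase) read 8.25 with CpG B, against 4.88 and 4.73 unstimulated. Pa2g4, a growth regulator that binds ribosomal RNA, read 8.29, against 5.43 and 5.47. Ncl (nucleolin) read 8.41, against 4.46 and 5.62, and Etf1, the release factor that ends translation, 7.09, against 4.12 and 4.36. The ribosomal protein gene Rps13 read 6.46, against 2.40 and 3.22. Ccnd2 (cyclin D2, which starts the cell cycle) read 7.05, against 4.48 and 4.48, and Fbxo11, part of a ubiquitin ligase, 6.66, against 4.10 and 4.13. Among these genes introns of Gnl3, Ncl and Rps13 carry small nucleolar RNAs, so host and guest signal could not be split here.

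The others were Phip, Nampt (which makes the NAD precursor nicotinamide mononucleotide), Parp14 and Rnf213 (both induced by interferon), Swap70 (which links signalling to the actin skeleton) and Tmem243. Nampt read 6.14 in CpG B cells, against 3.15 and 3.00 in unstimulated cells. Parp14 read 8.15, against 5.14 and 5.21. Swap70 read 8.56, against 5.46 and 5.69. In these 3 genes the unstimulated pair lay close together. Phip (8.43, against 4.49 and 5.33), Tmem243 (7.66, against 4.64 and 4.94) and Rnf213 (7.86, against 5.12 and 5.28) completed the set.

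**Figure D2:**
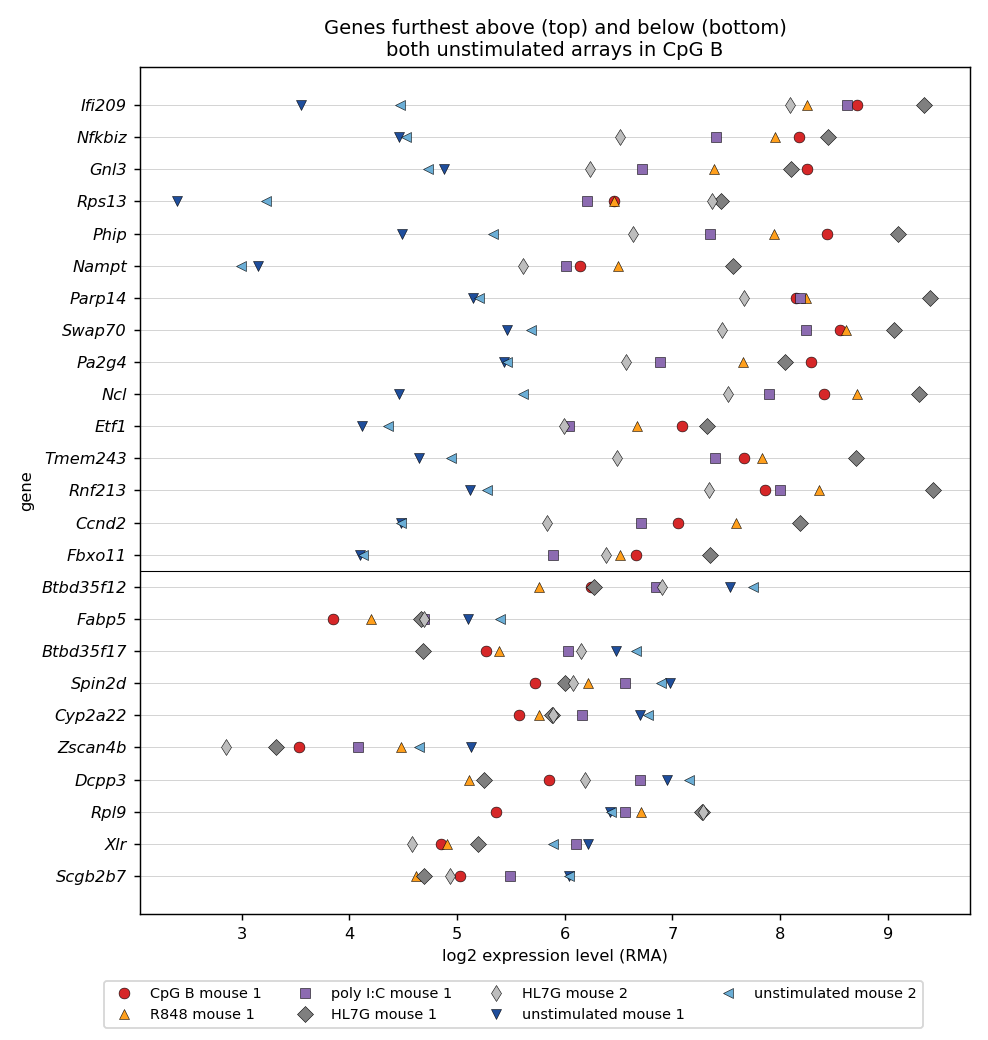
Rows are the 15 genes furthest above (upper block) and the 10 furthest below (lower block) both unstimulated arrays, and each symbol is the log2 expression level on 1 array, with CpG B in red and the unstimulated arrays in blue. In the upper block all 5 stimulated arrays lie right of both unstimulated arrays, and for Gnl3 and Pa2g4 CpG B is the highest of the 7. Both blocks were picked by CpG B against the same unstimulated pair, so the place of the other arrays is no separate check.

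NF-kB is a family of transcription factors held in the cytoplasm by IkB proteins, many of which it induces itself. Of its 4 tested subunit genes, 2 were at least 2-fold above both unstimulated arrays, beside 5.45% of all genes, and of 13 tested inhibitors and brakes 5 were, with 0 below. The median difference of the inhibitors and brakes was 0.99 from mouse 1 and 1.02 from mouse 2, and that of the subunits 1.35 and 1.28. The fit without the HL7G arrays gave no separate check of these 7 genes, since its spread came from the same 2 unstimulated arrays. Rel (c-Rel, a subunit of lymphoid and myeloid cells) read 6.69 in CpG B cells, against 4.50 and 5.07 in unstimulated cells, and Nfkb2 (p100, the precursor of p52) 7.05, against 5.26 and 5.47. Relb, the partner of p52, read 5.70, against 5.46 and 5.69, on the edge of the unstimulated range.

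Beside Nfkbiz, the inhibitors 2-fold above both arrays were Nfkbid, Nfkbia, Nfkbie and Tnfaip3. Nfkbid (IkB-NS, another nuclear member) read 6.95 with CpG B, against 4.86 and 5.22 unstimulated. Nfkbia (IkB-alpha, the main cytoplasmic inhibitor) read 8.13, against 6.35 and 6.97, which is 1.47 ± 0.411 above their mean (SE, adjusted p = 0.26 in limma). Nfkbie (IkB-epsilon) read 6.19, against 4.72 and 4.62. Tnfaip3, which encodes the ubiquitin-editing brake A20, read 7.20, against 5.60 and 5.72. Of the brakes that stayed close to unstimulated levels, Tnip1 (an A20 partner) read 4.74, against 4.34 and 4.61. Among 11 genes for mRNA decay factors and phosphatases that end the response, 1 was 2-fold above both, beside 5.45% of all genes. It was Zfp36l1 (6.33, against 4.95 and 5.18, though its dimmer probe set differed by 0.00074 and 0.11). The list's medians were 0.28 and 0.51.

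Promoters of these inhibitors are shown because a kappaB-type motif, the kind NF-kB binds, lies close to their start sites. The motif made of GGG, NNN and TTCC in a row, with N any base, was searched on both strands in the 250 bases before each gene's start in RefSeq's promoters (assembly GRCm38.p6). It was present in 1434 of 27025 genes (5.31%) and in 520 of the 8578 tested genes that had a promoter entry (6.06%). Among all genes at least 2-fold above both unstimulated arrays, 40 of 470 with an entry (8.51%) held the motif. It was present in 6 of 12 inhibitors and brakes and in 2 of 3 subunits with an entry, among them Nfkbia, Nfkbie, Nfkbid and Tnfaip3, and also Tnip1 and Cyld, which were not 2-fold above both arrays. Nfkbiz had no entry. Each window below holds the last 120 bases before the start, 5′ to 3′ on the gene's strand, with the match in capitals, and a match is a run of letters, not a measured site. Nfkbia lies on the minus strand (chr12:55492648-55492767), Nfkbie on the plus strand (chr17:45555580-45555699) and Nfkb2 on the plus strand (chr19:46304617-46304736).
Nfkbia: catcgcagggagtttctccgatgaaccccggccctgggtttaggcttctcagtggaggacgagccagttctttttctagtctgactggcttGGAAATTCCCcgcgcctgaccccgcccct
Nfkbie: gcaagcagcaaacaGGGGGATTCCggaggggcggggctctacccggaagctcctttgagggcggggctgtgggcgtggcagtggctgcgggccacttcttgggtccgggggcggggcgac
Nfkb2: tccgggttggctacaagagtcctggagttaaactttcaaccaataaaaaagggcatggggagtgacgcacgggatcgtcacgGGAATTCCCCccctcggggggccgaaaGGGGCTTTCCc
The match began 29 bases before the start in Nfkbia, 106 bases before it in Nfkbie, and 38 and 11 bases before it in Nfkb2.

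Interferon-stimulated genes read higher in CpG B cells as a group. Type I interferons, released by infected or TLR-stimulated cells, induce them through their cell surface receptor. Of 33 tested interferon-stimulated genes 32 lay above both unstimulated arrays and 0 below both, beside 42.9% and 34.9% of all genes. At least 2-fold above both were 18 of the 33, 7 of 10 interferon-inducible GTPases and 3 of 6 p200 DNA sensors (medians 1.03 and 0.75), beside 5.45% of all genes. The medians of the interferon-stimulated genes, 1.25 from mouse 1 and 1.24 from mouse 2, and of the GTPases, 1.51 and 1.49, were nearly the same from either unstimulated array. From the mean of both the interferon-stimulated median was 1.26 as deposited, 0.91 after loess and 1.08 after quantile scaling. Limma's fit without the HL7G arrays drew its spread from the 2 unstimulated arrays alone, so it gave no separate check of these lists.

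Usp18, which removes the ubiquitin-like protein Isg15 and dampens the interferon receptor, read 7.52 in CpG B cells, against 5.54 and 4.97 in unstimulated cells. Ifit1, which binds viral RNA caps, read 7.29, against 5.33 and 5.20, or 2.02 ± 0.447 above their mean (SE, adjusted p = 0.228 in limma). Zbp1, a sensor of left-handed nucleic acid, read 7.61, against 5.82 and 5.13. The dynamin-like antiviral GTPase Mx2 read 6.17, against 4.29 and 3.99, and Stat2, a subunit of the interferon-activated factor, 6.62, against 4.90 and 4.70. Irf7, which drives interferon-alpha genes, read 6.61, against 5.16 and 5.37. Isg15 itself read 5.23, against 4.28 and 3.58, so that it was 2-fold above the mouse 2 array and 0.95 above that of mouse 1. In all of these genes the CpG B value lay above both unstimulated values.

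The GTPases guard against vacuolar pathogens. Gbp8 read 7.38 with CpG B, against 4.31 and 4.96 unstimulated. The immunity-related GTPase Igtp read 6.06, against 4.10 and 4.08, and Irgm1, a regulator of that family, 6.01, against 4.05 and 4.06. The p200 gene Mndal read 5.12, against 2.72 and 2.85, while its relative Ifi205 read 4.58, against 3.84 and 4.45. The unstimulated pairs of Igtp, Irgm1 and Mndal lay close together.

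The same search was made for GAAA, NN and GAAA in a row, the letters shared by interferon response elements, which were present in 936 of 27025 genes (3.46%) and in 281 of 8578 tested genes (3.28%). They were present in 8 of 23 interferon-stimulated genes and in 6 of 6 GTPases with an entry. They were also present in 4 of 6 genes for type I interferons and their receptor, of which 0 were 2-fold above both arrays. Among all genes at least 2-fold above both, 27 of 470 with an entry (5.74%) held them. Windows here and above were picked only from genes 2-fold above both arrays that hold a match. The windows below are given as above, with the matches in capitals: Ifit1 on the plus strand (chr19:34640769-34640888), Igtp on the plus strand (chr11:58199436-58199555) and Irgm1 on the minus strand (chr11:48871421-48871540).
Ifit1: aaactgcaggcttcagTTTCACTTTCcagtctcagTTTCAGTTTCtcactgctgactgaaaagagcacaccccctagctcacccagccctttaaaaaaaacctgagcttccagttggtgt
Igtp: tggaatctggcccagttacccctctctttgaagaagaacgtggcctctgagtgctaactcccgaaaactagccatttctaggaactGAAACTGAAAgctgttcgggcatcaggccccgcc
Irgm1: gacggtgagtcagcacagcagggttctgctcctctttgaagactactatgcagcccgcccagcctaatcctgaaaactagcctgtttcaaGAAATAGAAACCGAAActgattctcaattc
Ifit1 holds 2 matches, both on the opposite strand, Igtp 1 match 34 bases before the start, and Irgm1 2 matches that overlap.

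No tested interferon gene was 2-fold above both unstimulated arrays on the CpG B array. Ifnb1 was at 3.20 in CpG B cells, against 3.32 and 3.11 in unstimulated cells, too dim to be tested. Of 6 tested genes for type I interferons and their receptor 0 were 2-fold from both arrays, and the medians were -0.41 and -0.10. By any amount 2 lay above both and 3 below both, beside 42.9% and 34.9% of all genes. The 6 include the receptor genes Ifnar1 and Ifnar2, so these medians are not those of the interferons alone. The feedback genes of JAK-STAT signalling had medians of 0.28 and 0.29, and 1 of 8 was 2-fold above both, beside 5.45% of all genes. It was Pim1, a kinase gene, at 8.71, against 6.46 and 6.70, while its dimmer probe set differed by 0.07 and 0.38.

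The nucleolus transcribes and processes ribosomal RNA, and its proteins set how fast a cell can build ribosomes. All 21 tested members of the ribosome biogenesis list lay above both unstimulated arrays, beside 42.9% of all genes, and 14 were at least 2-fold above both, beside 5.45%. Among abundant transcripts, 9 of 18 cytosolic ribosomal protein genes and 3 of 10 housekeeping transcripts were also 2-fold above both. The nucleolar medians were 1.36 from mouse 1 and 1.41 from mouse 2, and the median from the mean of both was 1.36, or 1.10 over the 15 members that host no small nucleolar RNA. The median over all 21 was 1.07 after loess and 1.24 after quantile scaling. For this list too, the fit without the HL7G arrays gave no separate check, its spread being that of the 2 unstimulated arrays.

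Mybbp1a, which binds RNA polymerase I and is no such host, read 7.32 in CpG B cells, against 5.63 and 5.46 in unstimulated cells. Pes1, a factor of the large ribosomal subunit, read 7.09, against 5.73 and 5.60, and its partner Bop1 6.58, against 5.27 and 5.17. The polymerase I subunit Polr1b read 5.57, against 4.46 and 4.49. Npm1 (nucleophosmin) read 9.19, against 6.03 and 7.13, and its dimmer probe set differed by 0.51 and 0.72. Wdr43, Nop58 and Dkc1, which serve early rRNA processing or rRNA modification and host small nucleolar RNAs, differed by 2.33 to 2.86 from either array. In Mybbp1a, Pes1, Bop1 and Polr1b the unstimulated values lay close together.

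Of 13 tested genes for amino acid and polyamine supply 5 were 2-fold above both unstimulated arrays, beside 5.45% of all genes, with medians of 0.95 and 0.79. They were Slc3a2 and Slc7a5, the chains of the large neutral amino acid carrier, Slc1a5, a glutamine carrier whose dimmer probe set differed by -0.21 and -0.057, and the mitochondrial folate enzymes Shmt2 and Mthfd2. Slc3a2 read 6.74 with CpG B, against 5.20 and 4.96 unstimulated, and Slc7a5 6.37, against 5.15 and 5.03. These chains join to form 1 carrier at the cell surface. Of 7 sterol genes 2 passed 2-fold (5.45% of all genes), Hmgcs1, an early enzyme of sterol synthesis (5.80, against 4.63 and 4.62), and Insig1, which holds back the sterol sensor (6.78, against 5.58 and 5.62). Glycolysis had 0 of 12 genes at 2-fold, with medians of 0.20 and 0.23, and the unfolded protein response 1 of 10, the chaperone Hspa5 (6.09, against 5.04 and 5.02), with medians of 0.53 and 0.41.

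Of 24 tested immediate-early factors, 3 were 2-fold above both unstimulated arrays, beside 5.45% of all genes, and the list's medians were 0.36 and 0.29. Myc, which drives ribosome and growth genes, read 8.38 in CpG B cells, against 5.97 and 6.02 in unstimulated cells, or 2.39 ± 0.555 above their mean (SE, adjusted p = 0.236 in limma). Irf4, a factor of activated lymphoid and myeloid cells, read 6.99, against 4.52 and 4.38, and the AP-1 subunit Jun 6.54, against 5.03 and 4.64. Junb, its relative, read 6.82, against 5.84 and 5.81, just short of 2-fold from mouse 1. Egr1, a zinc finger factor, read 5.24, against 5.20 and 4.84, and Ier3, an early gene of stress responses, 4.96, against 5.52 and 5.32.

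Of 12 tested survival genes 8 were 2-fold above both unstimulated arrays, beside 5.45% of all genes, with medians of 1.31 and 1.18. The fit without the HL7G arrays, resting on the same 2 unstimulated arrays, gave no separate check here. Gadd45b, a stress gene that NF-kB induces, read 8.60 in CpG B cells, against 6.21 and 5.94 in unstimulated cells. Birc3, an inhibitor of apoptosis, read 6.09, against 4.69 and 4.80, Cflar, which blocks caspase-8, 6.19, against 4.60 and 4.92, and Bcl2l1 (Bcl-xL) 6.09, against 5.03 and 4.83. Mcl1, a short-lived protector of mitochondria, read 7.59, against 5.79 and 6.19, though its dimmer probe set differed by -0.12 and 0.11. Bcl2, also among the 8, differed by 1.28 and 1.11, but its dimmer probe set by -0.52 and -0.76. By any amount 11 of the 12 lay above both unstimulated arrays, beside 42.9% of all genes. These included Bcl2l11, Bbc3 and Pmaip1, which promote cell death, so the list does not hold protectors alone. Only the apoptosis gene Bak1 lay below both, at 4.77, against 5.04 and 4.86, near the unstimulated pair.

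Of 15 tested costimulation and activation markers 7 were 2-fold above both unstimulated arrays, beside 5.45% of all genes, with medians of 1.28 and 1.03. Cd69, an early activation marker, read 6.29 in CpG B cells, against 3.95 and 3.62 in unstimulated cells. Cd40, the receptor through which T cells activate antigen-presenting cells, read 6.86, against 5.32 and 5.33. The B7 molecule Cd86 did not stand out, at 4.51, against 4.11 and 4.51. Slamf7 read 5.97, against 3.86 and 4.23, the interleukin-2 receptor chain Il2ra 6.40, against 4.43 and 4.53, the maturation marker Cd83 7.43, against 6.03 and 5.94, and the checkpoint ligand Cd274 (PD-L1) 6.17, against 4.88 and 4.88. The hyaluronan receptor Cd44 read 5.55, against 3.97 and 4.15. Apart from Cd86, these are the 7 markers 2-fold above both arrays.

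Of 13 genes of the MHC class I pathway, which presents peptides to CD8+ T cells, 2 were 2-fold above both unstimulated arrays, beside 5.45% of all genes, with medians of 0.86 and 0.82. B2m, the light chain of class I, read 9.23 in CpG B cells, against 5.74 in unstimulated cells of mouse 1 and 7.90 in those of mouse 2, so that it was 3.49 above one and 1.33 above the other. The other class I gene, H2-Q4, differed by 2.02 and 1.05, but its dimmer probe set by -0.18 and 0.25. Of 8 class II genes 1 was 2-fold above both, H2-Ab1 (7.66, against 5.16 and 5.93), with medians of 0.46 and 0.20. B2m and H2-Ab1 both read lower on the mouse 1 unstimulated array than on that of mouse 2.

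**Figure D3:**
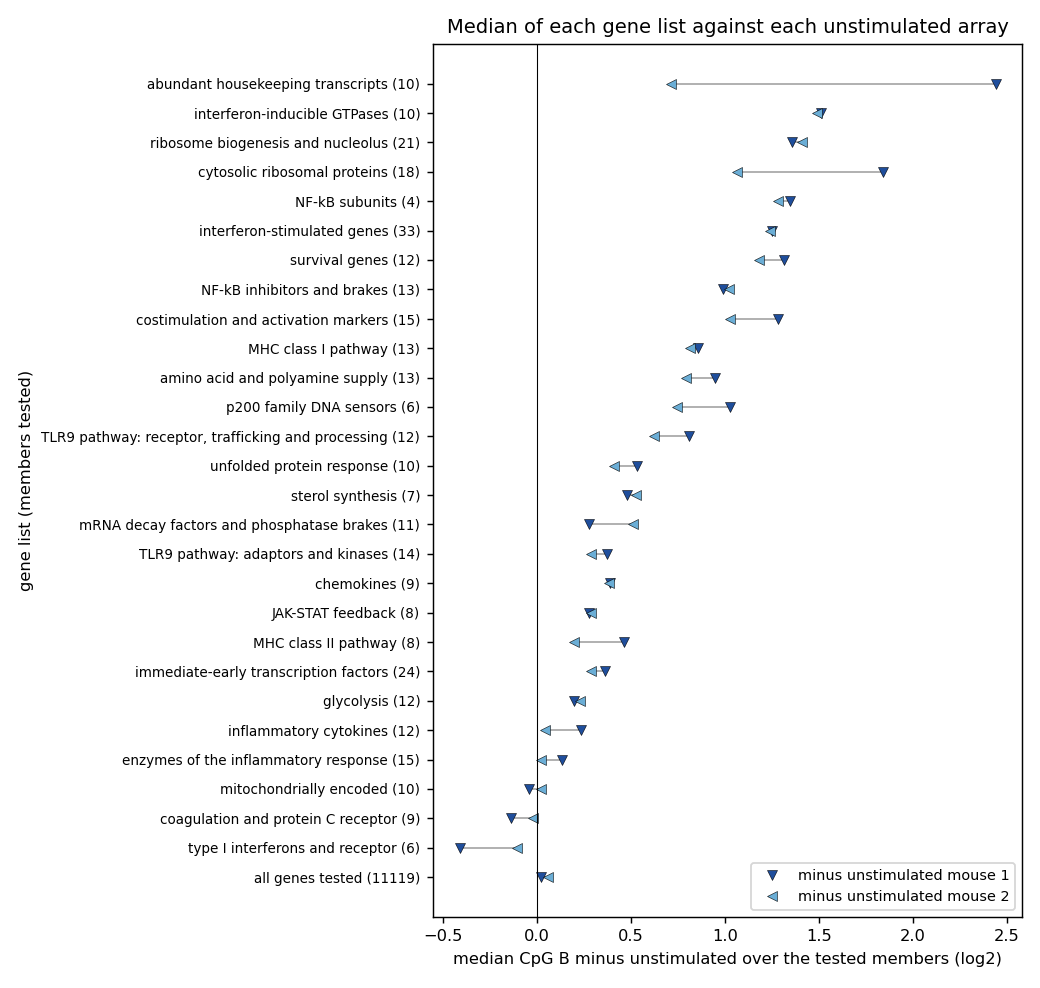
Each row is a gene list with its number of tested members, and the symbols are the median log2 difference between the CpG B array and the unstimulated array of mouse 1 (dark) and of mouse 2 (light). Interferon-stimulated genes (1.25 and 1.24), GTPases (1.51 and 1.49) and ribosome biogenesis (1.36 and 1.41) give nearly the same median from either array, whereas housekeeping transcripts (2.44 and 0.71) do not, and all genes tested sit at 0.03 and 0.06.

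The classical inflammatory output was small. Of 12 tested inflammatory cytokines 0 were 2-fold above both unstimulated arrays and 5 were above both at all, beside 42.9% of all genes, with medians of 0.23 from mouse 1 and 0.04 from mouse 2. From the mean of both the cytokine median was 0.17 as deposited, -0.04 after loess and -0.14 after quantile scaling, so its direction depended on the scaling. Tnf read 6.06 in CpG B cells, against 4.97 in unstimulated cells of mouse 1 and 5.99 in those of mouse 2, 0.58 ± 0.431 above their mean (SE, adjusted p = 0.622 in limma). Il1b read 6.34, between 5.02 and 6.50. For both genes CpG B was clearly above the mouse 1 array and level with the mouse 2 array.

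Il6 read 3.50 in CpG B cells, against 3.16 and 3.26 in unstimulated cells, at the dim end of the scale. Il12b read 4.95, against 4.97 and 4.94, and Il10, too dim to be tested, 3.99, against 4.41 and 3.91. Il1a read 3.91, against 4.13 and 4.16. Ebi3, a subunit of interleukin-27, read 5.55, against 4.80 and 4.55, and Ltb (lymphotoxin-beta) 6.90, against 5.67 and 6.45.

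Of 9 tested chemokines 1 was 2-fold above both arrays, beside 5.45% of all genes, and their medians were 0.39 and 0.38. It was Ccl3, a macrophage inflammatory protein, at 7.58 in CpG B cells, against 4.74 and 6.41 in unstimulated cells. Ccl5 read 7.49, against 6.28 and 6.71, Ccl4 6.99, against 6.10 and 6.15, and the interferon-induced Cxcl10 5.53, against 4.44 and 4.61. CpG B lay above both unstimulated arrays in all 4 as deposited, but after loess scaling the mean difference of Ccl5 was -0.017. In Ccl3 the gap was 2.84 from mouse 1 and 1.17 from mouse 2. Of 15 enzymes of the inflammatory response 2 passed 2-fold (5.45% of all genes), Nampt and the oxidase subunit Cybb (6.38, against 4.41 and 4.87), with medians of 0.13 and 0.02. Acod1, which makes itaconate, read 4.99, against 5.05 and 5.57.

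Of 12 tested genes for the receptor, its trafficking and its processing 10 lay above both unstimulated arrays, beside 42.9% of all genes, and 1 was 2-fold above both, beside 5.45%. Their medians were 0.81 and 0.62. Tlr9 read 5.95 in CpG B cells, against 5.57 and 5.30 in unstimulated cells, 0.52 ± 0.347 above their mean (SE, adjusted p = 0.585 in limma). Myd88 read 4.88, against 4.77 and 4.78. Unc93b1 read 5.79, against 4.56 and 5.06. The gene 2-fold above both was Hsp90b1 (gp96, a chaperone that folds TLRs), at 7.24, against 4.63 and 5.51. Of 14 adaptors and kinases 0 were, with medians of 0.37 and 0.29.

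The coagulation list, of interest because EPCR binds protein C, had 0 of 9 genes at 2-fold and medians of -0.14 and -0.02. Procr, the EPCR gene, read 4.94 in CpG B cells, against 5.29 and 5.18 in unstimulated cells, and F3 (tissue factor) 4.78, against 4.92 and 4.86. Both lay slightly under the unstimulated pair. The 10 mitochondrially encoded genes had 0 at 2-fold and medians of -0.04 and 0.03.

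Below both unstimulated arrays by any amount were 34.9% of all genes, against 42.9% above, and 33 genes were 2-fold below both (112 after loess and 126 after quantile scaling). No gene list had a member among those 2-fold below both unstimulated arrays. The 10 furthest below both unstimulated arrays had mean differences between -1.40 and -1.01 and adjusted p-values from limma between 0.207 and 0.402. Fabp5, a fatty acid carrier, read 3.85 in CpG B cells, against 5.10 and 5.40 in unstimulated cells. A second of its 4 probe sets differed by -1.22 and -1.57, and the other 2 by -0.26 and -0.04 and by 0.03 and -0.30. Rpl9, a ribosomal protein gene, read 5.36, against 6.42 and 6.43, while its dimmer probe set differed by 0.29 and 0.05.

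Cyp2a22, a cytochrome P450 gene, read 5.57 in CpG B cells, against 6.70 and 6.77 in unstimulated cells, and Scgb2b7, a secretoglobin gene, 5.03, against 6.04 and 6.04. Dcpp3, which is known from saliva, read 5.86, against 6.95 and 7.15. Btbd35f12, Btbd35f17, Spin2d, Xlr and Zscan4b belong to multicopy families, so that probes may be shared with their copies. Of these Btbd35f12 read 6.25, against 7.54 and 7.75, and Spin2d 5.72, against 6.98 and 6.90. In 8 of these 10 genes all 4 other stimulated arrays also lay under the unstimulated pair, whereas in Rpl9 all 4 lay above it. The genes were ranked by their distance from this same pair, which favours such a count, so it is no separate check. The share over all genes was not counted. Outside the 10, Chil3, a chitinase-like protein of alternatively activated macrophages, read 4.10, against 5.06 and 5.13.

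Markers of other cells were read beside these groups. Of 11 B cell markers 1 was 2-fold above both unstimulated arrays, beside 5.45% of all genes, and the list's medians were 0.38 and 0.19. It was Fcer2a (CD23), at 6.63 in CpG B cells, against 4.76 and 4.52 in unstimulated cells. The B cell receptor chain Cd79a read 5.21, against 4.99 and 5.60. Of 9 T cell markers 1 was, the interleukin-7 receptor chain Il7r, at 6.94, against 4.35 and 4.59, with medians of 0.39 and 0.39, and the T cell receptor chain Cd3e read 5.53, against 4.82 and 5.02. Of 6 plasmacytoid dendritic cell markers 0 were, with medians of -0.04 and 0.09, and Siglech read 4.95, against 5.46 and 5.03. The part of other cells in the groups above was not tested. The remaining cell type lists (plasma cells, NK cells, neutrophils, conventional dendritic cells, red pulp macrophages, erythroid cells, platelets, and endothelial and stromal cells) had 0 tested genes at 2-fold from both arrays, and no basophil, mast cell or eosinophil marker was bright enough to be tested.

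Set directly against the other stimuli, CpG B was called different in 0 genes against R848, poly I:C or HL7G by limma, with 329 (2.96%), 118 (1.06%) and 865 (7.78%) genes at an unadjusted p under 0.05. These comparisons share the CpG B array. By size alone, 78 genes (0.702%) were at least 2-fold above R848 and 89 (0.8%) below it, 40 (0.36%) above poly I:C and 28 (0.252%) below it, and 8 (0.0719%) above both HL7G arrays and 139 (1.25%) below both. A 2-fold gap from 1 array has no check from replicates.

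In inflammatory cytokines and chemokines CpG B read low among the stimuli. It lay below all 4 other stimulated arrays in 9 of 12 tested cytokines and 6 of 9 chemokines, beside 20.6% of all genes. These counts follow in part from the filter, which kept a gene if any array reached a level of 5. Il6 passed it only on the HL7G array of mouse 1, and Il1a only with poly I:C and HL7G. The same held for 7 of 10 housekeeping transcripts, 9 of 18 ribosomal protein genes and 7 of 13 MHC class I genes. Tnf read 6.06 with CpG B, against 6.56 with R848, 7.53 with poly I:C and 7.82 and 8.09 with HL7G. Il6 read 3.50, against 4.32, 4.17, 5.03 and 4.63 in the same order. Il1b read 6.34, against 6.77, 7.14, 7.57 and 8.27. CpG B stood apart from HL7G in these 3 genes, and less so from R848.

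Il1a read 3.91 with CpG B, against 4.28 with R848, 5.09 with poly I:C and 5.77 and 6.17 with HL7G, a difference from HL7G of -2.06 ± 0.285 (SE, adjusted p = 0.584 in limma). Acod1 read 4.99, against 5.91, 6.16, 7.05 and 6.95. Cxcl10 read 5.53, against 6.57, 6.91, 7.77 and 6.21. Myd88, the adaptor that TLR7 and TLR9 share, read 4.88, against 5.67, 5.71, 6.51 and 5.67, and was also under all 4. Of the cytokines with a promoter entry 3 of 10 (Il6, Il1rn and Ltb) hold the kappaB-type motif, and of the chemokines 3 of 5. Among all tested genes with an entry the share was 6.06%. Ccl3, the only chemokine 2-fold above both unstimulated arrays, holds no match. A link between the motif and these levels was not tested.

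**Figure D4:**
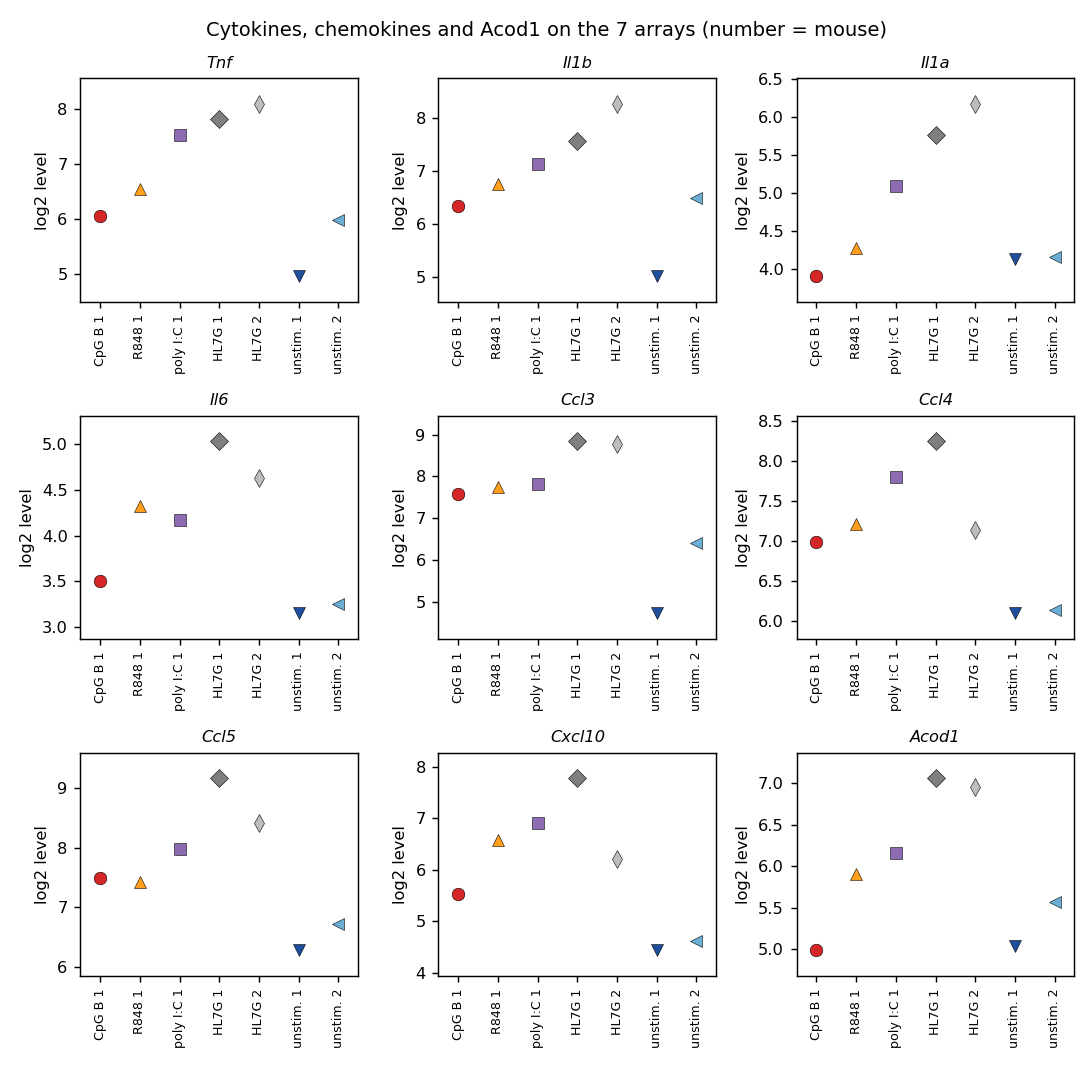
Each panel shows 1 gene and each symbol its log2 expression level on 1 array, with CpG B at the left, then R848, poly I:C and HL7G, and the unstimulated arrays at the right; the scale of the y axis differs between panels and does not start at 0. CpG B is the lowest stimulated array for Tnf (6.06), Il1b (6.34), Il1a (3.91), Il6 (3.50), Ccl3 (7.58), Ccl4 (6.99), Cxcl10 (5.53) and Acod1 (4.99), and the second lowest for Ccl5 (7.49).

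Of 33 interferon-stimulated genes 31 lay below the R848 array, beside 6237 of all 11119 genes, and 28 below the poly I:C array, beside 5227. Below all 4 other stimulated arrays lay 13 of the 33, beside 20.6% of all genes. The median difference of the 33 was -0.42 from R848, -0.26 from poly I:C, -1.50 from HL7G of mouse 1 and 0.13 from HL7G of mouse 2. Ifit1 read 7.29 with CpG B, against 7.67, 7.79, 8.81 and 7.70. Ifih1, a cytosolic RNA sensor, read 5.26, against 6.39, 6.16, 7.53 and 5.95. Ifi205 read 4.58, against 5.85, 5.92, 6.95 and 6.22, at least 2-fold under every other stimulated array, while the related Ifi209 read 8.71, within the range of 8.09 to 9.34. Ifit3 was the only interferon-stimulated gene above all 4 other arrays, at 7.11, against 6.40, 6.37, 6.65 and 6.71. The 2 HL7G arrays differed so much in this group that CpG B lay under one and level with the other.

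Against poly I:C and HL7G of mouse 2, nucleolar genes compared differently. All 21 lay above the poly I:C array, with a median of 0.50, beside 5892 of the 11119 genes. Above the R848 array lay 8, with a list median of -0.14, near all genes (4880 of the 11119, median -0.05). Against HL7G the median was -0.41 in mouse 1 and 0.82 in mouse 2. Gnl3 read 8.25 with CpG B, against 7.38 with R848, 6.72 with poly I:C and 8.10 and 6.23 with HL7G. Pa2g4 read 8.29, against 7.65, 6.88, 8.04 and 6.57. For these 2 genes CpG B was the highest array of all, narrowly over HL7G of mouse 1. Zc3h12c, a relative of the RNA-cutting brake Regnase-1, read 6.97, against 6.31, 5.65, 6.70 and 5.06, and Coq2, an enzyme of coenzyme Q synthesis, 5.94, against 5.39, 4.63, 5.17 and 4.42.

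At least 2-fold above all 4 other stimulated arrays were 2 genes (0.018%), the keratin-associated Krtap5-2 (8.13, against 5.83, 5.88, 6.26 and 5.47) and the olfactory receptor Olfr221 (5.30, against 3.49, 4.14, 4.26 and 4.20). Krtap5-2 also read 6.99 and 5.94 in unstimulated cells, and neither gene has a known role in monocytes. At least 2-fold below all 4 were 6 genes (0.054%): Ifi205, Rpl9, the histone gene H4c12, the adaptor gene Plekho1 and the small nucleolar RNAs Snord70 and Snord85. H4c12 read 5.74, against 7.24, 6.84, 7.64 and 7.54, and Plekho1 4.76, against 5.86, 5.88, 6.66 and 7.17. Ifi205 and Snord70 reached the level needed for testing only on the other stimulated arrays. Olfr221, Snord70 and Snord85 were named after their values were seen.

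Among the 6 largest differences each way from a single stimulus, CpG B read above R848 also in Sly, Stfa1, Krtap4-9, Rpl5 and Pla2g10os and below it in Abracl, Gabarap, Trim43b and Ndufa2. Gabarap, an autophagy adaptor, read 4.84 with CpG B, against 6.35 with R848, and Ndufa2, a subunit of respiratory complex I, 4.81, against 6.15. CpG B read above poly I:C also in Ms4a6b, by 1.55, and below it in Chil3, at 4.10, against 5.52, and in Rhbdl1 and Xlr. Against HL7G it read higher also in Ang4 and Cmtm5 and lower in Ifit1bl1, at 5.18, against 7.81 and 6.35. B cell markers lay below the other stimuli too. Of 11, 8 were under all 4, beside 20.6% of all genes and 7 of 10 housekeeping transcripts. Cd79a read 5.21, against 6.10, 6.26, 6.63 and 6.62. The part of B cell RNA in these differences was not tested.

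**Figure D5:**
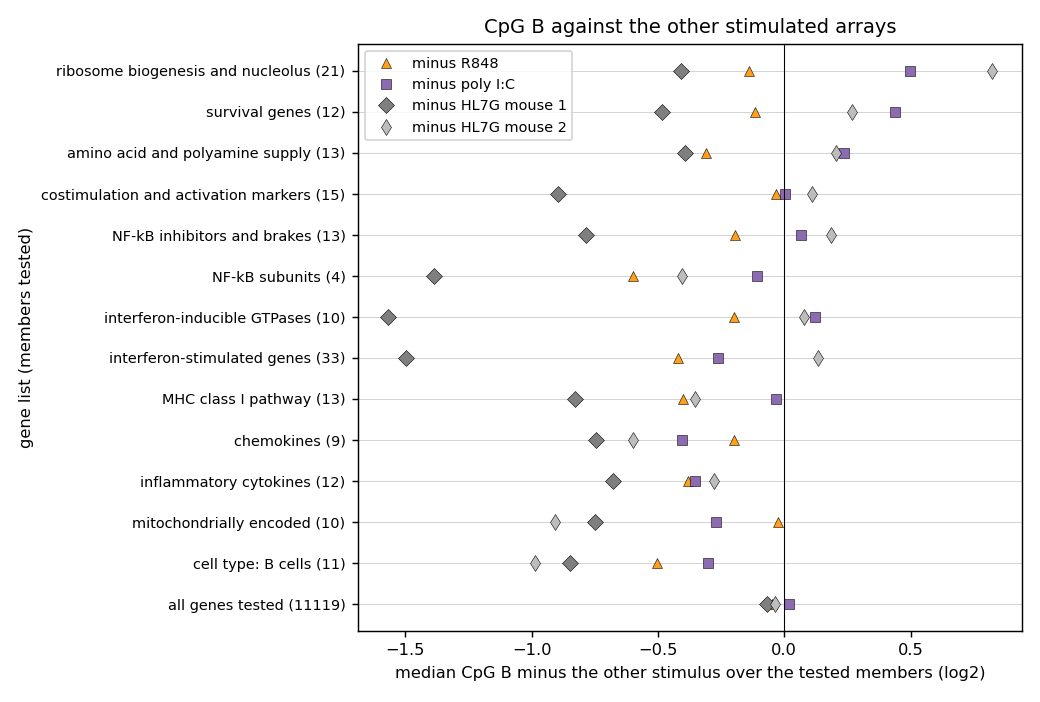
Rows are gene lists with their number of tested members, and symbols are the median log2 difference of CpG B from R848, poly I:C and the HL7G array of either mouse. Cytokine, chemokine, B cell, NF-kB subunit, MHC class I and mitochondrially encoded lists lie left of 0 against every other array. Nucleolar genes lie right of 0 against poly I:C (0.50) and HL7G of mouse 2 (0.82).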

How the data were processed

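RNA of mouse spleen monocytes was extracted with TRIzol, labelled with the WT PLUS kit and read on Affymetrix Mouse Gene 2.0 ST arrays, per the labels' protocols. The authors deposited log2 expression values; per the submitters' processing notes, RMA, Affymetrix Expression Console and Transcriptome Analysis Console were used, with no versions given. RMA puts arrays on a common distribution, so a change shared by most genes cannot be seen. No scanner files were used here, so background and saturation per probe are unknown; array medians lay between 4.40 and 4.54, and the number of arrays limits the precision.

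Of 41345 probe sets 23521 had 1 gene symbol; the brightest on average stood for each of 22180 genes, and 11119 that reached a log2 level of 5 on any array were tested. limma 3.58.1 in R 4.3.3 fitted all 7 arrays in 5 groups (2 residual and 4.94 prior degrees of freedom; 2-sided; Benjamini-Hochberg; adjusted p under 0.05). The unstimulated and HL7G arrays share animals: their mouse 2 minus mouse 1 differences correlated at -0.15 across genes, which are not independent replicates. Beyond the mouse number nothing says that samples were separate cultures, so p-values measure only the spread between these arrays. The alternatives were a replicate block, leaving out arrays, other scalings, filters, probe set rules and a variance trend. The fit was tested on simulated data.

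Named were the 15 genes furthest above and the 10 furthest below both unstimulated arrays, ranked by the smaller of the 2 differences, the 6 largest differences each way from R848, poly I:C and HL7G, a fixed set of pathway genes, and any member of a gene list; unnamed models, small RNAs, pseudogenes, olfactory receptors and antigen receptor segments were passed over. The members and lists were chosen with earlier results of these data known. Promoters came from RefSeq (GRCm38.p6), 250 bases before the start.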

Additional observations from a re-analysis of the deposited data

Results flagged for a closer look

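Probe sets without a gene symbol in the annotation used were left out of every comparison. Of 6505 such probe sets that reached a log2 level of 5 on any array, 459 (7.06%) read at least 2-fold above both unstimulated arrays on the CpG B array, and 265 (4.07%) at least 2-fold below both. They were picked out because they carry signal outside the comparisons by gene.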

How the results depend on the processing

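The 0 calls for CpG B against unstimulated cells depended on the arrays that set the spread. Leaving out 1 array at a time gave 0 to 502 genes called higher and 0 to 28 lower: 502 and 28 without either HL7G array or with the arrays of the 2 groups alone, and 86 higher without the mouse 2 unstimulated array. Loess scaling and a variance trend each gave 2 higher, and quantile scaling gave 104 higher and 16 lower. With animal as a block 0 were called against unstimulated cells, and 1 lower against HL7G; no other count of calls changed with the block. Calls against R848 and poly I:C were 0 under every alternative run. Genes 2-fold above and below both unstimulated arrays numbered 385 and 112 with loess, 469 and 126 with quantile scaling, 279 and 13 with a mean level of at least 6, and 73 and 2 at 4-fold. Against 1 unstimulated array alone, chosen after seeing the data, they were 1138 and 114 for mouse 1 and 692 and 77 for mouse 2. The cause of these shifts was not tested. Quantile scaling moved the median of all genes to -0.10, against 0.03 as deposited.

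Some differences of CpG B from unstimulated cells, as a log2 value, changed sign, among them those of Ccl5, Tnf and Il1b. Under the block they were Ang4 0.17, Cd79a 0.071, Il12b -0.094, Il1rn -0.021, Myd88 -0.097, Snord70 0.77 and Trim43b 0.039. Under loess they were Ccl5 -0.017, Cmtm5 -0.14, H4c12 -0.46, Il12b -0.030, Il1b -0.081, Relb -0.18, Rpl5 -0.18 and Tnf -0.042. Under quantile scaling they were Cd86 -0.049, Cmtm5 -0.23, Cyld -0.0037, H4c12 -0.062, Il12b -0.047, Il1rn -0.23, Il6 -0.49, Relb -0.027 and Rpl5 -0.25. Under median centring they were Il12b -0.064 and Il1rn -0.019. Leaving out 1 array at a time gave ranges of Cd79a -0.38 to 0.22, Cmtm5 -0.028 to 0.32, Gabarap -0.27 to 0.00011, H4c12 -0.20 to 0.41, Il12b -0.016 to 0.017, Il1b -0.16 to 1.32, Il1rn -0.028 to 0.12, Rpl5 -0.080 to 0.34, Snord70 -0.86 to 0.62 and Trim43b -0.18 to 0.094.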
